A study of Homo sapiens with 36 samples.

Results

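Long noncoding RNAs are transcripts of RNA polymerase II that are spliced and polyadenylated much like messenger RNAs but are not annotated as coding for protein. They include antisense and divergent transcripts that start near protein-coding promoters, host genes whose introns release small nucleolar RNAs or microRNAs, and intergenic transcripts, many of which are spliced less completely than messenger RNAs. SCAF4 and SCAF8 are RNA-binding proteins that associate with the C-terminal domain of RNA polymerase II, so nascent noncoding transcripts lie within their reach as nascent messenger RNAs do.

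The clusters described here are the stretches of crosslinked RNA in 18 lists from a PAR-CLIP experiment whose midpoint lay in the body of a GENCODE 44 lncRNA gene on GRCh38 and in no protein-coding gene body on the same strand. MALAT1, NEAT1, NORAD, TUG1, KCNQ1OT1, GAS5, SNHG1 and SNHG5 were left out, which removed 1112 clusters. By this rule 13024 of 278185 clusters were members, and they fell in 1005 of the 18859 lncRNA genes considered. A further 4765 clusters lay in both a lncRNA gene and a protein-coding gene body of the same strand and were counted with the protein-coding genes.

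PAR-CLIP feeds cells 4-thiouridine, crosslinks RNA to protein with UV light of 365 nm and reads the crosslinks as T-to-C changes. All cells were HEK293 Flp-in T-Rex, an established human embryonic kidney line, grown in 100 µM 4-thiouridine overnight and in a further 500 µM for 2 h before crosslinking at 2000 J/m2. The 6 groups, each with 3 replicate lists, were FLAG-SCAF4 and FLAG-SCAF8 cells after FLAG immunoprecipitation (SCAF4 IP and SCAF8 IP), input RNA of the same extracts taken before the precipitation (SCAF4 input and SCAF8 input), a FLAG precipitation from parental cells that carry no FLAG-tagged protein (control IP), and the input of the parental cells (parental input). The tagged proteins were induced overnight with doxycycline, which the methods also give for the parental cells, and their binding is that of an induced, tagged copy. The labels give doxycycline for the FLAG-SCAF4 and FLAG-SCAF8 cells but no value for the parental cells, and they differ from the methods on the dose. Whether the parental groups differed from the others in doxycycline therefore cannot be told. Each list joined a soluble and a chromatin library, so 36 libraries stood behind the 18 lists.

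The IP lists held 18287 to 54404 clusters, the SCAF4 and SCAF8 inputs 4793 to 11715, the parental inputs 4567 to 12493 and the control IP lists 1621 to 9638. Read counts are not part of the lists. The depth behind a cluster is therefore unknown, and shares of a list were compared rather than counts. GENCODE tags and 30-mers showed that the members were rich in sequence with several genomic copies. Of the 13024 clusters, 5321 had under 50% of their 30-mers at a single place in the genome, here called repeated sequence. In addition, 1020 lay in 45S ribosomal RNA repeats of chromosome 21 and 459 overlapped a transfer RNA gene, matched on either strand. The authors kept reads with several possible placements and reported each at 1 of them, so in repeated sequence the gene copy behind a cluster cannot be told.

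The 6 regions shown next carry the main patterns. Each window is 100 nt around the middle of a region on GRCh38, written 5′ to 3′ on the transcribed strand, with capitals marking matches to the motifs CGG or CGA, to NCAGN with C or G at each N, and to CTCC or CACC, searched on this strand alone and free to overlap. The first and second are shown because they come from separate genes that share a tandem repeat.
ENSG00000267605, chr19:37271246-37271345, minus strand: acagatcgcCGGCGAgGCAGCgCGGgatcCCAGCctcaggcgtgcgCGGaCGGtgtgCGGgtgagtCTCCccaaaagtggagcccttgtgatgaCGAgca
ENSG00000267053, chr19:36284505-36284604, plus strand: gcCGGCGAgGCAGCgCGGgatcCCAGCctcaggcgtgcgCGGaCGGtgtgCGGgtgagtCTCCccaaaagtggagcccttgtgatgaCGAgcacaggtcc
The next window, in an exon of PPIEL, comes from a region found in all 6 IP lists and in no input or control IP list.
PPIEL, chr1:39559304-39559403, minus strand: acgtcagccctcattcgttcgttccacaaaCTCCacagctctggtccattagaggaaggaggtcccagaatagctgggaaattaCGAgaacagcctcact
ZNF767P, whose region was likewise found in all 6 IP lists and in no input or control IP list, is shown for the same reason.
ZNF767P, chr7:149621026-149621125, minus strand: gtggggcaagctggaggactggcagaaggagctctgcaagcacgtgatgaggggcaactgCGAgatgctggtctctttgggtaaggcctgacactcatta
MZF1-AS1 and CEBPB-AS1 are antisense RNAs whose clusters came from IP lists alone.
MZF1-AS1, chr19:58562915-58563014, plus strand: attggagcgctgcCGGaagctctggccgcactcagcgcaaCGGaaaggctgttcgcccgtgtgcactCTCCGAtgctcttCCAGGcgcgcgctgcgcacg
CEBPB-AS1, chr20:50191353-50191452, minus strand: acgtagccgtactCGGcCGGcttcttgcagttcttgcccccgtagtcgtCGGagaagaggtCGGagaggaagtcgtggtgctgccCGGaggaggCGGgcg

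LncRNA genes held a small share of every list, and the mean share over the IP lists lay below that of their inputs. In the SCAF4 IP lists 4.08%, 4.12% and 4.06% of clusters were members (replicates 1, 2 and 3). In the SCAF8 IP lists the share was 4.86%, 4.68% and 4.94%, above every SCAF4 IP list. The SCAF4 inputs held 4.17%, 5.34% and 5.76%, the SCAF8 inputs 5.53%, 4.92% and 4.86%, the parental inputs 4.71%, 6.70% and 6.65% and the control IP lists 4.77%, 6.96% and 9.62%. The IP and input values overlapped, and the smallest control IP lists had the highest shares.

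Over all 6 IP lists the mean share was 4.46% ± 0.414 (SD, n = 6), against 5.10% ± 0.572 (SD, n = 6) in their own inputs. The difference of -0.64 percentage points gave p = 0.0455 in a two-sided exact permutation test and an adjusted p of 0.0631 over the 25 tests made. The difference from the control IP lists (7.12% ± 2.43, SD, n = 3) was -2.66 points, with p = 0.0357 in the exact permutation test and an adjusted p of 0.0525. Neither passed after adjustment, and without the clusters in 45S repeats, which made up 3.17% to 7.71% of the members in the IP lists, 10.2% to 20.1% in their inputs and 12.8% to 30.8% in the control IP lists, the differences were -0.13 and -1.08 points. SCAF4 IP and SCAF8 IP did not overlap (4.09% ± 0.0265 and 4.83% ± 0.131, SD, n = 3 each). With 3 lists against 3 an exact permutation test cannot go below p = 0.1, the value it gave, with an adjusted p of 0.114. The control IP and parental input lists differed by 1.10 points (exact permutation test, p = 0.4, adjusted p = 0.417).

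**Figure D1:**
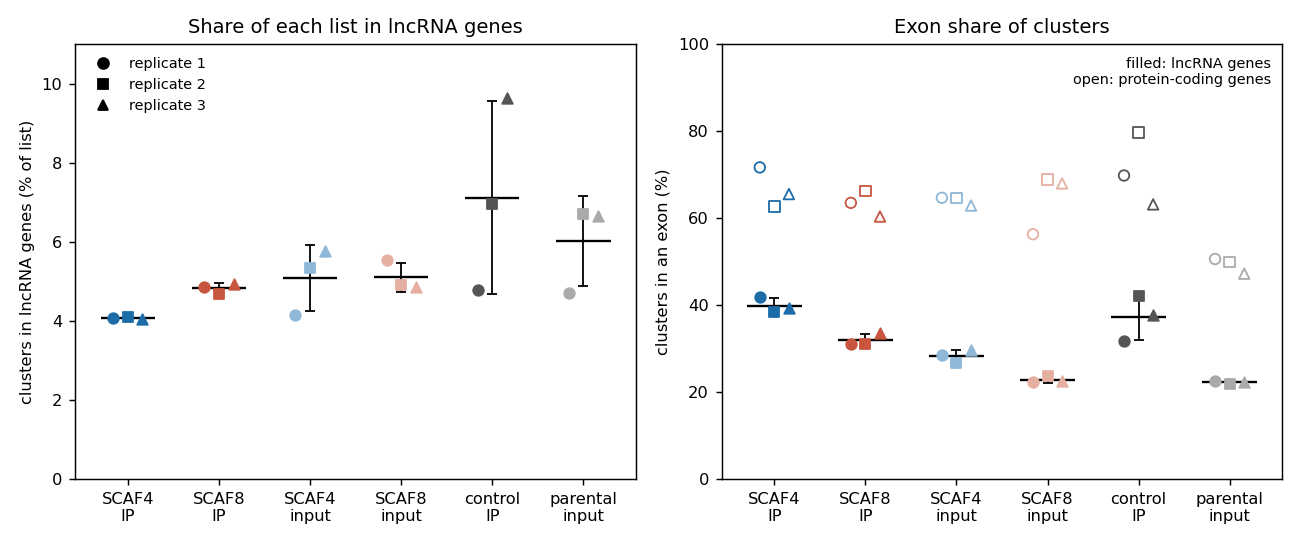
Left, clusters in lncRNA genes as a percentage of each list; right, clusters in an exon as a percentage of the clusters in lncRNA genes (filled symbols) and in protein-coding genes (open symbols), by group. Each symbol is a list, shaped by replicate, and the bars give the mean ± SD over 3 lists for the lncRNA values. The exon shares of the 6 IP lists (31.0% to 41.8%) lie above those of their 6 inputs (22.3% to 29.7%), while the lncRNA shares of the left panel overlap.

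Counted on a single isoform per gene, most clusters in lncRNA genes were intronic. The exon share was higher in the IP lists than in the inputs. Exons were those of the isoform with the most exonic bases, and 4237 clusters had their midpoint in such an exon, against 8787 in an intron. The exon share was 41.8%, 38.4% and 39.3% in the SCAF4 IP lists and 31.0%, 31.2% and 33.6% in the SCAF8 IP lists. It was 28.5%, 26.7% and 29.7% in the SCAF4 inputs, 22.3%, 23.7% and 22.6% in the SCAF8 inputs and 22.6%, 21.9% and 22.5% in the parental inputs. Each IP list thus exceeded each input list, and SCAF4 lists exceeded SCAF8 lists both before and after the precipitation. With exons of all isoforms counted, the majority turned in SCAF4 IP, where the exon share was 57.2%, 50.5% and 52.7%. It was then 42.9% to 44.1% in SCAF8 IP, 39.6% to 42.4% in the SCAF4 inputs and 32.0% to 34.5% in the SCAF8 inputs.

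The IP mean of 35.9% ± 4.55 (SD, n = 6) exceeded the input mean of 25.6% ± 3.15 (SD, n = 6) by 10.3 points. The exact permutation test, which does not pair an IP list with its own input, gave p = 0.00216, the smallest that 6 lists against 6 allow, and an adjusted p of 0.0108. Without the clusters in repeated sequence the difference was 5.82 points and no longer passed (exact permutation test, p = 0.0671). The control IP lists, at 31.7%, 42.2% and 37.8%, overlapped the SCAF IP lists, with a difference of -1.38 points (exact permutation test, p = 0.69, adjusted p = 0.69) whose sign turned with the clusters counted. It was 9.86 points without the gene with most clusters (exact permutation test, p = 0.0357), -12.9 points without 45S repeats (exact permutation test, p = 0.0476) and -18.8 points without repeated sequence (exact permutation test, p = 0.0595), where the control IP values were 38.0%, 72.0% and 63.95% of 237, 75 and 86 clusters. SCAF4 IP exceeded SCAF8 IP by 7.89 points without overlap (exact permutation test, p = 0.1, adjusted p = 0.114), and the SCAF4 inputs exceeded the SCAF8 inputs as well, at means of 28.3% and 22.9%.

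Per length, exons were far denser in clusters than introns. In the 819 member genes with an intron, exons made up 3.87% of the gene length, 2193 kb of exon against 54499 kb of intron. No length was taken off for stretches shared with a same-strand protein-coding gene, where no cluster counts as a member. How far this moves the comparison of exons and introns was not tested. The log2 ratio of clusters per kb of exon to clusters per kb of intron was 3.94, 3.72 and 3.77 in the SCAF4 IP lists and 3.20, 3.26 and 3.38 in the SCAF8 IP lists. It ranged from 2.31 to 3.06 in their inputs and from 2.19 to 2.36 in the parental inputs, and it was 3.28, 3.93 and 3.75 in the control IP lists. Exons were thus ahead of introns in every group, and the control IP mean of 3.66 ± 0.333 (SD, n = 3) lay between those of SCAF4 IP (3.81 ± 0.114) and SCAF8 IP (3.28 ± 0.0915). The mean over the 6 IP lists was 3.54 on the log2 scale (exact sign-flip permutation test, p = 0.0312, the smallest for 6 lists, adjusted p = 0.0488). The IP lists exceeded their inputs by 0.89 on the log2 scale (exact permutation test, p = 0.00216, adjusted p = 0.0108), and by 0.50 without the repeated sequence (exact permutation test, p = 0.0584).

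The exon share of lncRNA genes was lower than that of protein-coding genes in each of the 6 IP lists. Protein-coding genes had an exon share of 60.4% to 71.7% in those lists, and the mean difference was -29.1 points (exact sign-flip permutation test, p = 0.0312, adjusted p = 0.0488). In a test added after seeing the data, clusters that spanned an exon-intron boundary made up 13.3% ± 1.90 (SD, n = 6) of the members in the IP lists and 5.07% ± 1.76 (SD, n = 6) in their inputs, without overlap (exact permutation test, p = 0.00216, adjusted p = 0.0108). Inner exons, neither first nor last, held 12.2% of the 8523 IP clusters and 4.01% of 2491 own-input clusters. First exons held 8.30% and 5.90%, and last exons 8.54% and 8.15%. In the control IP first exons held 12.4%, inner exons 6.82% and last exons 10.3% of 777 clusters, and the boundary share was 7.70% ± 2.97 (SD, n = 3). The rise was not particular to lncRNA genes. In protein-coding genes the boundary share was 28.3% ± 3.75 in the IP lists and 13.95% ± 0.572 in their inputs (SD, n = 6 each).

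The first part of lncRNA genes held more clusters than the last. With the gene body cut into 4 equal parts, the part at the start held 37.7% of clusters in the IP lists and the part at the end 17.4%. In their own inputs these shares were 34% and 15.5%. The share within 1000 nt of the gene start was 15.1% ± 1.83 in the IP lists and 12.2% ± 2.03 in their inputs (SD, n = 6 each), with overlapping lists (exact permutation test, p = 0.026, adjusted p = 0.0488). The difference of 2.94 points fell to 2.02 without the gene with most clusters (exact permutation test, p = 0.182) and to 1.59 without 45S repeats (exact permutation test, p = 0.258), and it did not pass without any of the 3 replicate numbers (2.30 to 3.72). The control IP share was 11.5% ± 1.68 (SD, n = 3). Genes that start within 1000 nt of a protein-coding start on the other strand, on either side of it, are here called divergent genes. The class thus includes genes that run across the coding gene, such as CEBPB-AS1 opposite CEBPB. Divergent genes in this sense held 13.2% ± 1.57 of IP clusters and 10.98% ± 1.98 of input clusters (SD, n = 6 each; exact permutation test, p = 0.0584, adjusted p = 0.0769). The difference of 2.19 points was 3.43 with 2000 nt allowed between the starts (exact permutation test, p = 0.0173) and -0.0736 among the better-scored clusters, from the median of each list upward (exact permutation test, p = 0.944). SCAF4 IP had 14.3% ± 0.0239 against 9.88% ± 1.14 in its inputs, without overlap, and SCAF8 IP 12.0% ± 1.53 against 12.1% ± 2.21 (SD, n = 3 each). The control IP had 6.95% ± 1.25 (SD, n = 3), and whether the proteins differed was not tested.

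Clusters from all lists that overlapped on the same strand merged into 3918 regions in lncRNA genes. Of these, 48.2% came from a single list and 6.43% from 9 lists or more. At least 2 of the 3 SCAF4 IP lists held 28.7% of the lncRNA regions, where 34.9% of all 82455 merged regions of the series did. For the SCAF8 IP lists the share was 23.6% of lncRNA regions and 24.9% of all regions, for the SCAF4 inputs 5.03% and 5.29%, for the SCAF8 inputs 7.38% and 7.62%, for the parental inputs 6.02% and 4.92% and for the control IP lists 2.50% and 2.57%. Recurrence in lncRNA genes was thus near that of the series, and below it for SCAF4 IP.

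Clusters were concentrated in few genes. The 10 genes with most clusters held 29.9% of them and the first 100 genes 63.6%, while 264 genes had a single cluster. The gene with most clusters (852) is not named here and is counted in every total. To compare genes, clusters were counted per 10000 clusters of the list, and the 124 lncRNA genes with 20 or more clusters over all lists were set against all 3413 genes with as many.

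Of these 124 genes, 10 (8.06%) had a higher share in all 6 IP lists than in all 6 own inputs, where 5.13% of all 3413 genes did. They were ENSG00000291003, MUC20-OT1, HERC2P9, TMEM147-AS1, PPIEL, ENSG00000290924, ENSG00000290453, MZF1-AS1, CCDC144BP and SDHAP1, listed after their values were seen where the naming rule does not give them. Of the 10, 7 carry the GENCODE tag for overlap with a pseudogene, a duplicated or decayed gene copy, and 7 had most of their clusters in repeated sequence. Among all 124 genes these counts were 39 and 50. PPIEL and SDHAP1 carry the names of peptidylprolyl isomerase E and of a succinate dehydrogenase subunit, and HERC2P9 that of the ubiquitin ligase HERC2. In the other direction, 7 genes (5.65%) had a lower share in all 6 IP lists than in all 6 own inputs, against 5.36% of all genes. Both shares lie near those over all genes.

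PPIEL, on chromosome 1 at 39522280 to 39559698 on the minus strand, had 3, 7 and 4 clusters in the SCAF4 IP lists and 6, 4 and 8 in the SCAF8 IP lists. It had 1 cluster in SCAF8 input replicate 3, 1 in the first parental input and none in the other inputs or the control IP lists. None of its 34 clusters was in repeated sequence, and 50.0% lay in an exon of the chosen isoform. MZF1-AS1, the antisense RNA of the zinc finger gene MZF1 on chromosome 19, had 2, 4 and 3 clusters in the SCAF4 IP lists, 1, 4 and 11 in the SCAF8 IP lists and none elsewhere. Its 25 clusters were mostly intronic, with 12.0% in an exon. Both genes were thus seen almost wholly in the IP lists, with counts of a few clusters a list.

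ENSG00000291003, a gene with 32 exons on chromosome 15 that overlaps a pseudogene, had 7, 20 and 12 clusters in the SCAF4 IP lists and 9, 7 and 13 in the SCAF8 IP lists. It had 2 clusters in the first SCAF4 input, 1 in the first SCAF8 input, 2 in the first control IP list and none in the other lists. Of its 73 clusters 79.5% were exonic and 98.6% lay in repeated sequence. HERC2P9, also on chromosome 15, had 20 clusters in SCAF4 IP, 19 in SCAF8 IP, 1 in the inputs and 3 in the control IP, with 74.4% in exons. In the pseudogene-tagged genes as a group, tested after seeing the data, the share of members was 22.6% ± 4.68 in the IP lists and 11.4% ± 4.16 in their inputs (SD, n = 6 each; exact permutation test, p = 0.00649, adjusted p = 0.0271). The difference of 11.1 points was 2.83 without repeated sequence (exact permutation test, p = 0.0823) and 9.65 without replicate 3 (exact permutation test, p = 0.0857). The tagged group includes 7 of the 10 genes picked above for being higher in all IP lists. Its test therefore partly restates that choice and gives no separate support. The share was 26.2% ± 0.7 in SCAF4 IP and 12.6% ± 4.7 in its inputs, without overlap (exact permutation test, p = 0.1). SCAF8 IP, at 18.9% ± 3.7, overlapped its inputs, at 10.3% ± 4.1 (SD, n = 3 each; exact permutation test, p = 0.2).

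**Figure D2:**
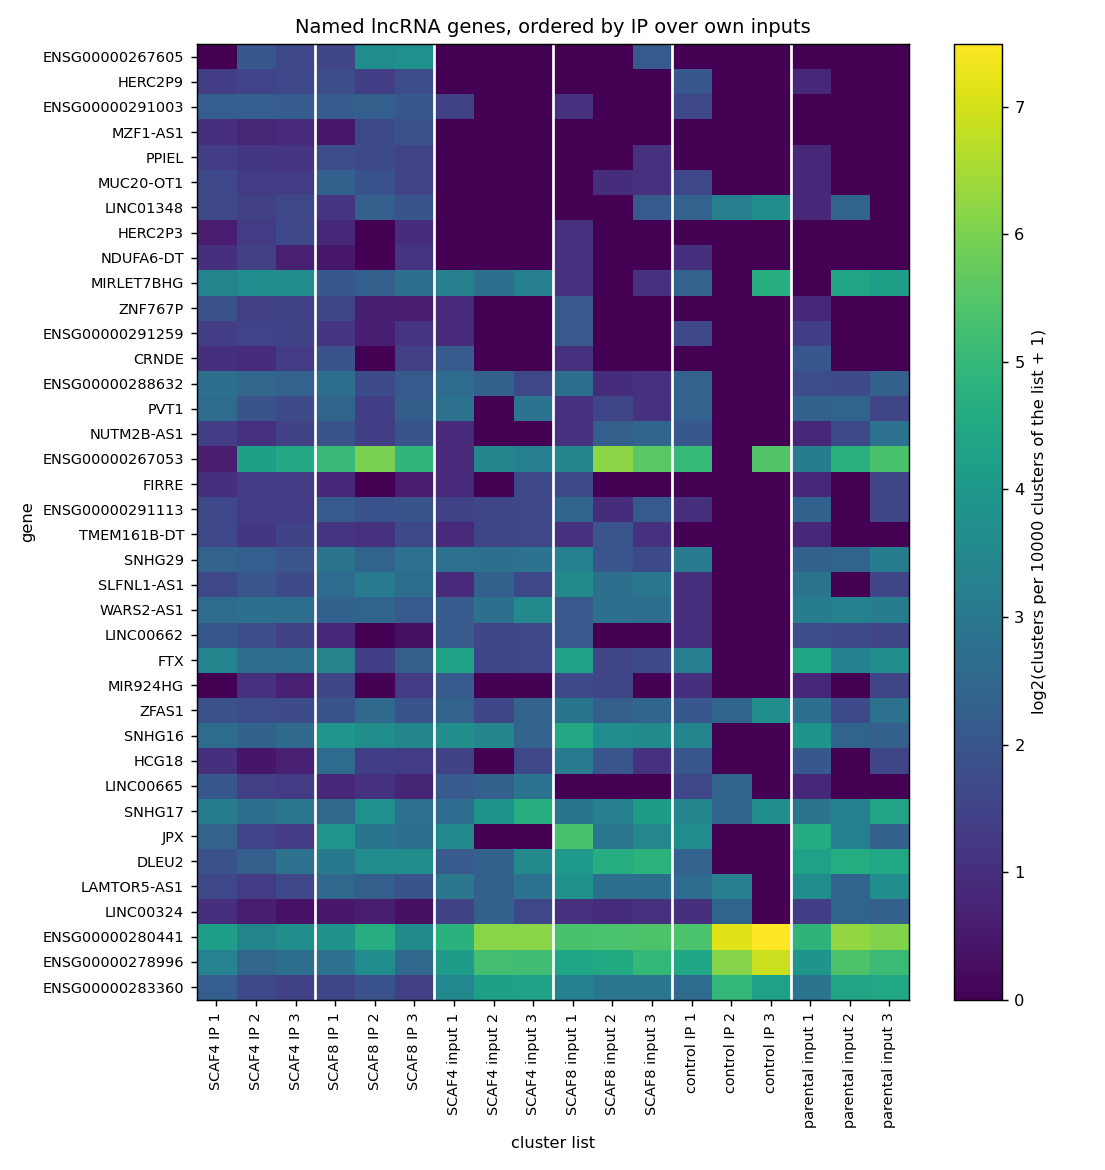
Named lncRNA genes with 20 or more clusters (rows) in the 18 lists (columns), coloured by log2 of clusters per 10000 clusters of the list plus 1, ordered by the ratio of the IP mean to the mean of the SCAF4 and SCAF8 inputs. The upper rows (PPIEL, MZF1-AS1, ENSG00000291003) are near 0 in the inputs, and the lowest rows (ENSG00000280441, ENSG00000278996, ENSG00000283360) are brightest in inputs and control IP.

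The genes lower in the IP lists were led by ribosomal and transfer RNA loci. ENSG00000280441, on chromosome 21 at 8380643 to 8454792 on the plus strand, had all of its 670 clusters inside 45S ribosomal RNA repeats, none of them in its own exons. Per 10000 clusters it had 12.9 in SCAF4 IP and 16.3 in SCAF8 IP, against 55.9 in the SCAF4 inputs, 40.3 in the SCAF8 inputs, 57.2 in the parental inputs and 121 in the control IP (means of 3 lists). ENSG00000278996, its neighbour on the same chromosome, had 350 clusters, all in 45S repeats, at 6.38 and 7.42 per 10000 in the IP groups against 29.6 and 24.7 in their inputs. ENSG00000283360 on chromosome 1 had 136 clusters, all of them over a transfer RNA gene, matched on either strand. It had 2.55 and 2.14 per 10000 in the IP groups against 15.5 and 7.39 in their inputs. These counts are of overlap with other genes that the same RNA can come from where the strands match, and the lncRNA itself cannot then be told apart from them. All 1020 members in 45S repeats were clusters of ENSG00000280441 and ENSG00000278996. The 45S share of the members therefore restates the values of these genes and gives no separate support. Tested after seeing the data, it was 4.85% ± 1.82 in the IP lists and 14.6% ± 4.05 in their inputs (SD, n = 6 each), without overlap (exact permutation test, p = 0.00216, adjusted p = 0.0108).

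In each of the 6 IP lists repeated sequence held far more of the lncRNA clusters than of the protein-coding ones. The shares in lncRNA genes were 40.0%, 40.4% and 40.1% in SCAF4 IP and 41.3%, 44.2% and 38.0% in SCAF8 IP, and in protein-coding genes 5.39% to 7.0%. The mean difference, likewise tested after seeing the data, was 34.6 points (exact sign-flip permutation test, p = 0.0312, adjusted p = 0.0488). The 9 inputs spanned 34.8% to 45.8%, which covers the IP values.

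Tandem repeats on chromosome 19 were among this repeated sequence. ENSG00000267053, at 36257662 to 36321276 on the plus strand, runs away from the start of the zinc finger gene ZNF565 and had 703 clusters, 1.14% of them in exons of its chosen isoform. A stretch shared with ENSG00000267605 occurs 17 times in it, at spacings of 2499 to 2553 nt. ENSG00000267605, at 37235507 to 37304395 on the minus strand and opposite the zinc finger gene ZNF383, holds the same stretch 14 times at spacings of 2524 to 2539 nt. The windows printed above for these genes are the same unit shifted by a few bases, and 38.5% of the distinct 30-mers in the cluster span of ENSG00000267605 occurred, on the transcribed strand, in that of ENSG00000267053.

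The arrays differed in how their clusters were spread over the lists. ENSG00000267605 had 0, 17 and 7 clusters in the SCAF4 IP lists and 5, 21 and 52 in the SCAF8 IP lists, 3 in SCAF8 input replicate 3 and none in the other 8 inputs or the control IP lists. ENSG00000267053 had 1, 98 and 74 clusters in SCAF4 IP and 80, 113 and 123 in SCAF8 IP, but also 9, 74 and 42 in the SCAF8 inputs, 1, 5 and 4 in the SCAF4 inputs, 10, 12 and 20 in the parental inputs and 30, 0 and 7 in the control IP lists. SCAF4 IP replicate 1 stood low at both genes, and no control IP or parental input list had a cluster in ENSG00000267605. Per 10000 clusters ENSG00000267605 averaged 1.73 in SCAF4 IP and 8.67 in SCAF8 IP, and ENSG00000267053 13.4 and 41.1, the latter beside inputs of 6.33 and 42.6. Thus SCAF8 lists were higher than SCAF4 lists at ENSG00000267053 in the input as well.

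Within ENSG00000267605 the clusters sat at a few places of the repeat unit. Of the 102 clusters within 1300 nt of a copy of the shared stretch, 41 lay from 300 nt before to 100 nt after it, 54 lay 900 to 1300 nt away on either side and 7 lay elsewhere. In SCAF4 IP the counts were 15, 8 and 0, and in SCAF8 IP 25, 44 and 7. In ENSG00000267053 the same zones held 174, 183 and 269 of 626 clusters, a wider spread. There the zone at the stretch held 22.5% of 160 such clusters in SCAF4 IP and 20.1% of 273 in SCAF8 IP. It held 39.9% of 158 in the 9 inputs and 57.1% of 35 in control IP. The zones were drawn after the positions had been seen. The share of the repeat unit that they cover was not set against these counts. Another tandem array, ENSG00000287001, with its commonest repeat distance at 3065 nt and 136 clusters, all in repeated sequence, shared 0 and 4 distinct 30-mers with those genes and was lower in all 6 IP lists than in all 6 own inputs.

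**Figure D3:**
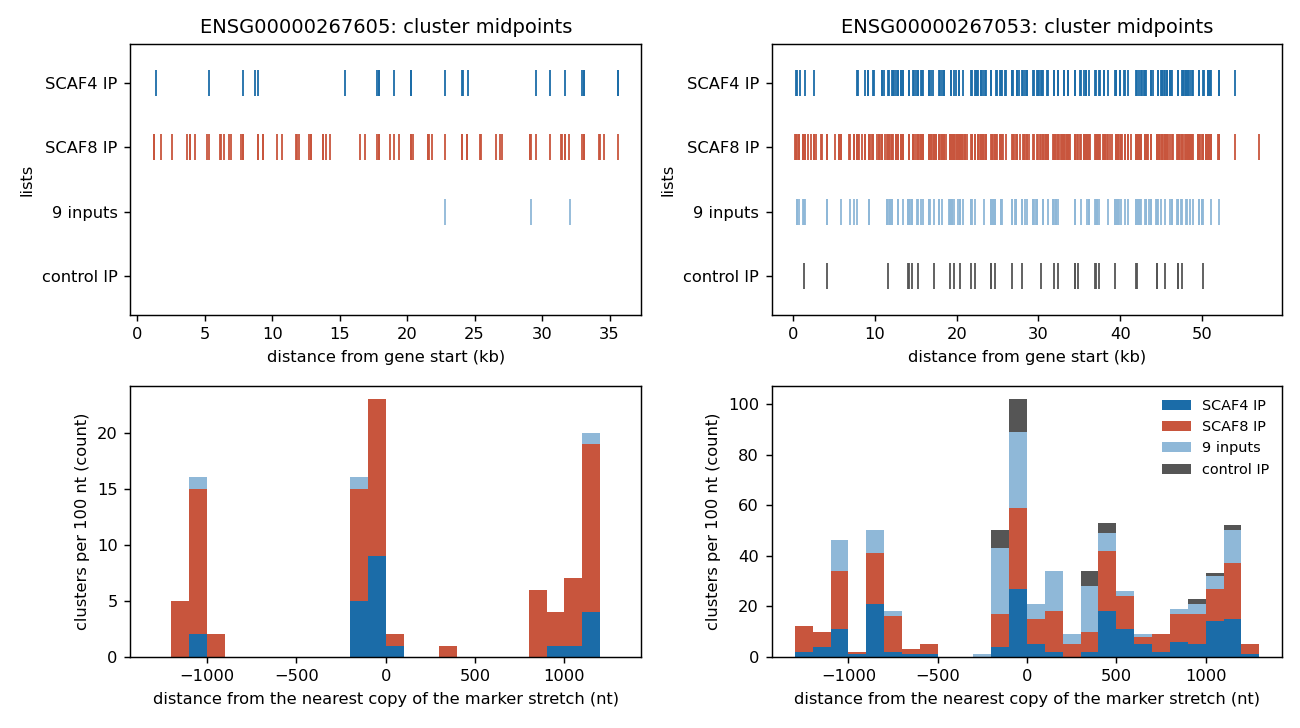
Clusters in ENSG00000267605 (left) and ENSG00000267053 (right). Top, midpoints by distance from the gene start in kb, a tick for each cluster, for SCAF4 IP, SCAF8 IP, all 9 inputs and control IP; bottom, clusters per 100 nt by distance from the nearest copy of the shared stretch, stacked by group. In ENSG00000267605 the control IP row is empty, the 9 inputs hold 3 ticks, and clusters gather near the stretch and 900 to 1300 nt from it.

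Host genes of small nucleolar RNAs release those RNAs from their introns while their spliced exons are often degraded. Of 30 such genes in the list used, 17 had clusters, 957 in all, and 9 had 20 or more, of which 0 were higher and 0 lower in all IP lists than in all own inputs, where 5.13% and 5.36% of all genes were. They made up 7.39% ± 1.02 of the members in the IP lists and 8.64% ± 1.18 in the inputs (SD, n = 6 each; exact permutation test, p = 0.0779, adjusted p = 0.0974). The difference of -1.25 points was -2.17 without the gene with most clusters (exact permutation test, p = 0.013) and -2.32 without 45S repeats (exact permutation test, p = 0.0152). The control IP share was 4.65% ± 3.15 (SD, n = 3). SNHG16, SNHG17, SNHG29 and ZFAS1 led with 241, 218, 131 and 93 clusters. SNHG16 had 10, 22 and 17 clusters in SCAF4 IP, 36, 22 and 41 in SCAF8 IP, 14, 5 and 2 in the SCAF4 inputs and 20, 12 and 10 in the SCAF8 inputs.

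Their clusters were not mainly at the small RNAs themselves. Clusters overlapping a small noncoding RNA gene were 17.6% of 289 in SCAF4 IP (95% exact interval 13.4% to 22.5%), 15.5% of 317 in SCAF8 IP (11.7% to 19.9%), 22.2% of 216 in the SCAF4 and SCAF8 inputs (16.9% to 28.4%) and 23.4% of 47 in control IP (12.3% to 38.0%). These intervals cover counting error and not the spread between lists, and they overlap. Exons of the chosen isoform held 34.7% of their IP clusters and 35.5% of those in the 9 inputs. These shares depend on the isoform chosen. Over all 18 lists, exons of the chosen isoform held 20.6% of SNHG17 clusters and exons of any isoform 87.2%. The corresponding values were 16.03% and 63.4% for SNHG29, 40.9% and 78.5% for ZFAS1 and 38.2% and 42.7% for SNHG16. How far the shares over all host genes would move was not tested. ZFAS1, which starts beside ZNFX1 and hosts SNORD12 family RNAs, had 35.5% of its 93 clusters over small RNA genes.

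In microRNA host genes clusters lay chiefly in introns. Of 85 in the list, 20 had clusters, 788 in all, and exons of the chosen isoform held 5.99% of their IP clusters and 0.379% of their input clusters. These shares depend on the isoform chosen. Over all 18 lists, exons of the chosen isoform held 0.772% of DLEU2 clusters and exons of any isoform 13.9%. The values were 0% and 23.5% for FTX, 2.46% and 9.36% for MIRLET7BHG and 0% in both for MIR924HG. How far the shares over all these host genes would move was not tested. DLEU2, which carries MIR15A and MIR16-1, had 259 clusters, at 5, 21 and 20 in SCAF4 IP, 18, 21 and 50 in SCAF8 IP, 4, 2 and 5 in the SCAF4 inputs and 14, 25 and 25 in the SCAF8 inputs. MIRLET7BHG, which carries MIRLET7A3 and MIRLET7B, ran the other way, with 18, 61 and 40 in SCAF4 IP, 8, 7 and 24 in SCAF8 IP, 10, 3 and 4 in the SCAF4 inputs and 1, 0 and 1 in the SCAF8 inputs. At both genes the input of a line leaned the same way as its IP. Clusters over the small RNAs were 3.45% of 290 in SCAF4 IP (95% exact interval 1.67% to 6.25%), 1.90% of 211 in SCAF8 IP (0.519% to 4.78%), 1.28% of 156 in the SCAF4 and SCAF8 inputs (0.156% to 4.55%) and 4.35% of 23 in control IP (0.110% to 21.9%), with overlapping intervals.

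Antisense RNAs were the largest class with gene names, with 150 of 1841 genes and 1515 clusters. Exons held 39.5% of their IP clusters and 25.6% of their input clusters, 17 genes had 20 clusters or more, and 2 of them, MZF1-AS1 and TMEM147-AS1, were higher in all IP lists than in all own inputs, where 5.13% of all genes were. WARS2-AS1, which starts beside WARS2, had 137 clusters, LAMTOR5-AS1 115, SLFNL1-AS1 114 and NUTM2B-AS1 55. CEBPB-AS1, which lies opposite CEBPB, a leucine zipper transcription factor, had 1, 10 and 8 clusters in the SCAF4 IP lists and none in the other 15 lists. None of its 19 clusters was in repeated sequence and 57.9% were exonic. Divergent transcripts with a DT name had 303 clusters in 59 of 589 genes, with 51.9% exonic in the IP lists and 50.0% in the inputs, led by TMEM161B-DT (40), NDUFA6-DT (21), EOLA2-DT (17) and B4GAT1-DT (16).

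Long intergenic RNAs with a LINC name had 680 clusters in 96 of 2261 genes, with 44.3% exonic in the IP lists and 35.4% in the inputs. LINC01348, of 9294 nt on chromosome 1, had 83.9% of its 56 clusters in exons, at 4, 9 and 7 in SCAF4 IP, 3, 7 and 12 in SCAF8 IP and 4, 2 and 2 in the control IP. Since the control lists are small, that was 8.38 per 10000 clusters in control IP against 1.94 and 2.64 in the IP groups. LINC00662 had 6, 13 and 6 clusters in SCAF4 IP and 2, 0 and 1 in SCAF8 IP, and LINC00665 6, 9 and 5 against 2, 2 and 3. The inputs leaned the same way, with 4, 1 and 1 in SCAF4 and 3, 0 and 0 in SCAF8 at LINC00662. At LINC00665 they held 4, 2 and 3 against 0, 0 and 0. Per 10000 clusters LINC00662 had 2.44 in SCAF4 IP and 2.49 in its inputs, and LINC00665 2.10 and 4.53. LINC00324, a short gene on chromosome 17, had 25 clusters of which 14 came from the inputs.

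JPX, FTX and FIRRE, RNAs of the X-linked dosage compensation region or of X chromosome organisation, had 425 clusters, and 0 of the 3 were higher or lower in all IP lists, where 5.13% and 5.36% of all genes were. JPX had 8, 10 and 5 clusters in SCAF4 IP, 35, 12 and 24 in SCAF8 IP, 12, 0 and 0 in the SCAF4 inputs and 36, 7 and 9 in the SCAF8 inputs. FTX had 18, 28 and 19, and 23, 3 and 16 in the IP groups, and 22, 1 and 1, and 17, 2 and 2 in their inputs. In the input lists of both genes replicate 1, the replicate sequenced with longer reads, had the most clusters. FIRRE had 15 clusters in SCAF4 IP, 4 in SCAF8 IP and 6 in the inputs, with 76.0% in exons.

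Of the 16 RNAs listed as well studied, 9 had clusters. PVT1, downstream of MYC, had 10, 15 and 8 clusters in SCAF4 IP, 11, 3 and 15 in SCAF8 IP, 22 in the 9 inputs and 4 in control IP. CRNDE had 12 and 14 in the IP groups and 9 in the inputs, and HCG18 6 and 22 with 19 in the inputs. MUC20-OT1 had 4, 8 and 5 clusters in SCAF4 IP and 10, 5 and 8 in SCAF8 IP against 3 in the inputs, with 91.1% of its clusters in repeated sequence. The 534 genes known only by an Ensembl number held 6237 clusters, and 3 of their 61 genes with 20 clusters or more were higher and 7 lower in all IP lists than in all own inputs, where 5.13% and 5.36% of all genes were.

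SCAF4 IP and SCAF8 IP differed at named genes, mostly along with their inputs. Of the 124 genes, 8 (6.45%) had a higher share in all 3 SCAF4 IP lists than in all 3 SCAF8 IP lists, where 10.3% of all genes did, and 21 (16.9%) were higher in all 3 SCAF8 IP lists, where 8.58% of all genes were. The SCAF4-high genes included MIRLET7BHG, WARS2-AS1, LINC00662, LINC00665 and FIRRE, and the SCAF8-high genes ENSG00000267053, DLEU2, SNHG16, JPX, SNHG29, LAMTOR5-AS1, SLFNL1-AS1, ZFAS1 and PPIEL. The mean input share leaned the same way as the IP at 7 of the 8 and at 15 of the 21. Among all 124 genes the input lean was split, 57 against 60. Some input means were very low, as at PPIEL with 0 in the SCAF4 inputs and 0.37 per 10000 in the SCAF8 inputs, from a single cluster. Per 10000 clusters MIRLET7BHG had 10.8 in SCAF4 IP and 4.26 in SCAF8 IP beside inputs of 7.58 and 0.73, and DLEU2 4.13 and 10.2 beside inputs of 5.92 and 22.4. Differences of RNA level between the lines and of binding were not tested against each other.

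**Figure D4:**
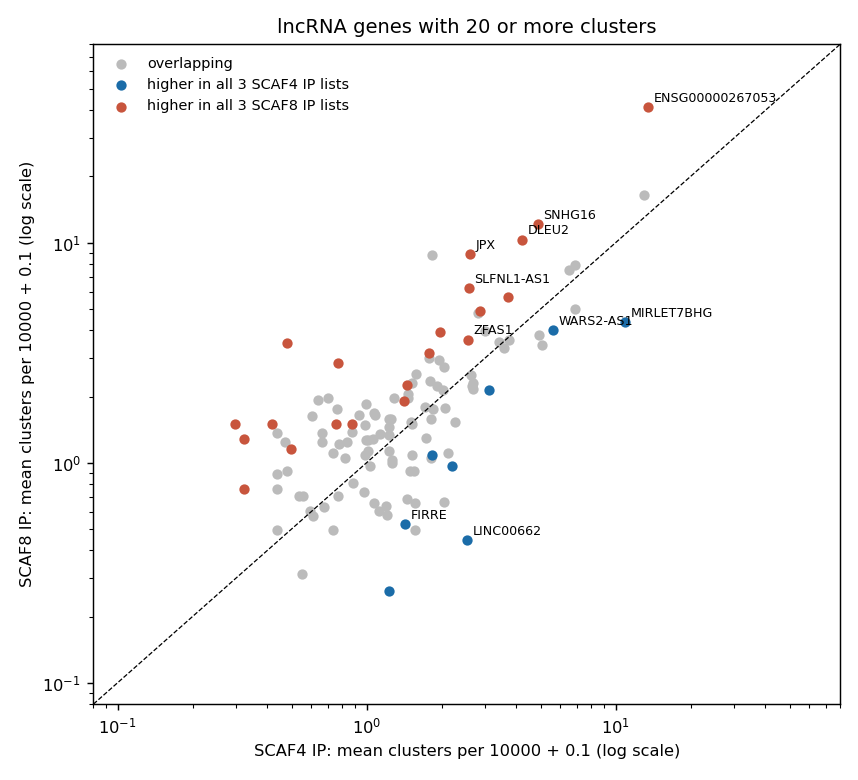
Mean clusters per 10000 clusters of the list plus 0.1 in SCAF4 IP (horizontal) and SCAF8 IP (vertical) for the lncRNA genes with 20 or more clusters, both axes on a log scale, with the dashed line marking equal values. Blue points mark the 8 genes higher in all 3 SCAF4 IP lists and red points the 21 higher in all 3 SCAF8 IP lists.

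Base composition and short motifs were compared between IP lists, inputs and control IP. The 100 nt around the midpoint had a GC content of 51.4% ± 1.08 in the IP lists and 50.0% ± 2.05 in their inputs (SD, n = 6 each; exact permutation test, p = 0.206, adjusted p = 0.224), and 51.9% ± 1.12 in control IP (SD, n = 3). Each of the 6 IP lists exceeded the input of its own extract, and with the replicate block, labels exchanged only within a replicate number, the difference of 1.31 points passed (exact permutation test, p = 0.00926). It was 3.27 points without 45S repeats (exact permutation test, p = 0.00433), -0.00851 without the gene with most clusters (exact permutation test, p = 0.998) and 4.89 without repeated sequence (exact permutation test, p = 0.00216), where the IP lists had 47.4% to 50.2% and their inputs 41.8% to 45.2%. Of the 3 motifs, searched on the transcribed strand, NCAGN with C or G at each N was found in 44.7% ± 2.61 of IP windows and 35.8% ± 3.48 of input windows (SD, n = 6 each), without overlap (exact permutation test, p = 0.00216, adjusted p = 0.0108). CGG or CGA was found in 68.4% ± 2.82 and 61.7% ± 5.68 (exact permutation test, n = 6 each, p = 0.0173, adjusted p = 0.0488), and CTCC or CACC in 53.5% ± 3.38 and 47.0% ± 3.26 (exact permutation test, n = 6 each, p = 0.0108, adjusted p = 0.0387). All 3 motifs were thus more frequent in the IP lists than in their inputs, with overlapping lists for CGG or CGA and for CTCC or CACC. Without the gene with most clusters those differences were 2.68 and 5.22 points and did not pass (exact permutation test, p = 0.545 and p = 0.0628), nor did they without replicate 2 or replicate 3. In the control IP lists CGG or CGA was found in 69.2% ± 3.58 and CTCC or CACC in 53.1% ± 1.68 of windows (SD, n = 3 each), close to the SCAF IP means. NCAGN was found in 38.5% ± 2.72 (SD, n = 3), where the highest control IP list (40.4%) overlapped the lowest SCAF8 IP list (39.95%).

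Against protein-coding genes, lncRNA clusters of the IP lists had 2.15 points more GC, at 51.4% and 49.2%, and more windows with each motif, by 1.49 points for CGG or CGA, 2.52 for NCAGN and 5.69 for CTCC or CACC. Each of these was higher in 6 of 6 IP lists (exact sign-flip permutation test, p = 0.0312, adjusted p = 0.0488 for each). The first of these motif differences and the GC difference changed sign without repeated sequence, to -6.45 and -0.06 points, and the other motif differences were then 1.28 and 2.54 points and did not pass (exact sign-flip permutation test, p = 0.0625 and p = 0.0938). The shares over protein-coding windows of the same length were 66.9%, 42.1% and 47.9%.

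Consensus regions are the regions found in several IP lists that survive removal against inputs and controls. Regions in at least 2 of 3 lists of a protein, or at least 2 of 6 pooled, were dropped where they overlapped more than 1 input list, where the gene had 1 or more merged input region per 10 kb, or where they overlapped a control IP cluster. In lncRNA genes this left 432 of 1167 SCAF4 regions (37.0%), 286 of 964 SCAF8 regions (29.7%) and 762 of 1779 pooled regions (42.8%). Over the whole series 34.4%, 24.6% and 38.6% of regions were left, so lncRNA genes fared much like all genes. The counts depended on single replicates, with 132 SCAF4, 200 SCAF8 and 476 pooled regions left without replicate 2 and 180, 74 and 383 without replicate 3. They made up 4.73% of the pooled consensus (95% exact interval 4.41% to 5.07%).

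The 762 pooled regions lay in 375 lncRNA genes, 215 of them with a single region. Exons held 42.9% of the regions (95% exact interval 39.4% to 46.5%), against 69.9% in protein-coding genes (69.1% to 70.6%). Lists of both proteins contributed to 498 regions, SCAF4 lists alone to 177 and SCAF8 lists alone to 87, and 23 regions were found in all 6 lists. Of the 432 SCAF4 regions 29.9% overlapped a SCAF8 region, and of the 286 SCAF8 regions 44.8% overlapped a SCAF4 region. In protein-coding genes these were 28.2% and 58.4%. Without clusters in repeated sequence 469 pooled regions were left.

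The genes with most pooled regions were ENSG00000267605 (27), ENSG00000288632 (15), ENSG00000291003 (10), PVT1 (10), ENSG00000291113 (8), PPIEL (8), MZF1-AS1 (7), HERC2P3 (7), CEBPB-AS1 (7), HERC2P9 (6), ENSG00000291259 (6) and ZNF767P (6). Of these 12, PVT1, PPIEL, MZF1-AS1 and CEBPB-AS1 had 0.0% of clusters in repeated sequence and ZNF767P 18.2%, while the other 7 had 86.1% to 100%. ENSG00000288632, a gene with 14 exons on chromosome 16 opposite SULT1A4 and SLX1B, had 50 clusters in SCAF4 IP, 32 in SCAF8 IP and 22 in the inputs, with 14.8% in exons. The input density step removed 207 member genes, among them DLEU2, JPX, FTX, SNHG16, SNHG17, MIRLET7BHG, WARS2-AS1 and ENSG00000267053, which therefore have 0 consensus regions. Without that step 1220 pooled regions were left.

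**Figure D5:**
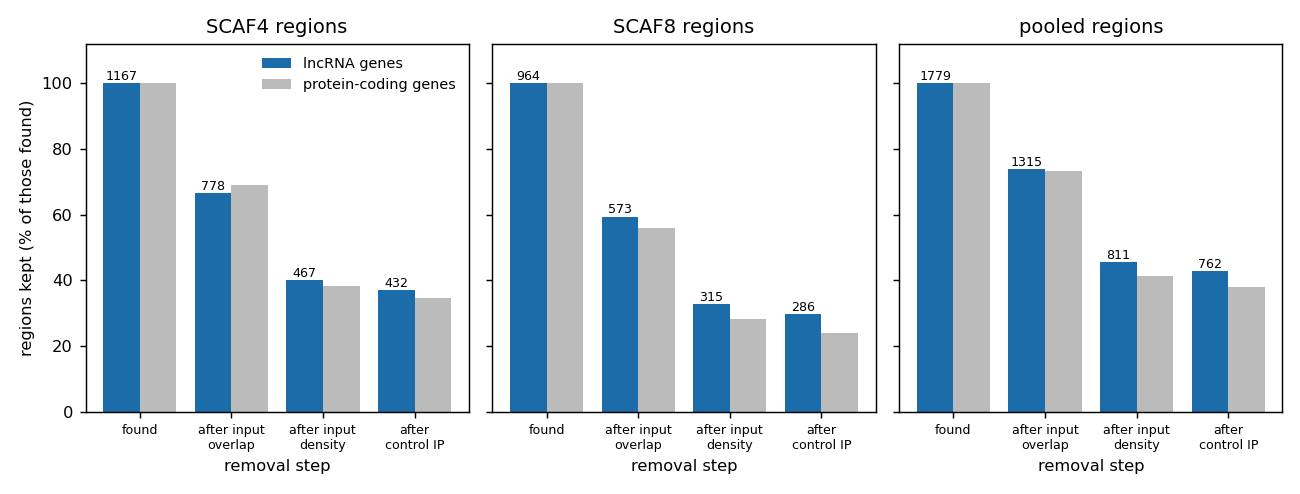
Regions kept after each removal step as a percentage of those found, for lncRNA genes (blue, with the number of regions above each bar) and protein-coding genes (grey), in the SCAF4, SCAF8 and pooled sets. The input overlap and input density steps take most regions in both classes, and lncRNA genes end at 37.0%, 29.7% and 42.8%.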

How the data were processed

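Per the labels and the methods, the authors trimmed reads with cutadapt under Trim Galore, aligned them to GRCh38 with Bowtie2 2.2.9, removed duplicates with Picard, joined the soluble and chromatin libraries of a replicate and called clusters with PARalyzer. Replicate 1 was sequenced with longer reads. The deposited BED lists give position, strand and an unnamed score (0.501 to 1), which was used here only to rank clusters within a list. No column was left out for belonging to another series. The removal steps of the consensus regions follow the study's methods, with overlap with a control IP cluster as the last step.

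Each cluster was assigned by its midpoint to GENCODE 44 genes, and RefSeq gave 45S and transfer RNA genes, the latter without a strand. The 30-mers of each cluster were counted in the primary assembly. Lists are the replicates, which the study calls biological replicates, and p-values measure the spread between them. Groups were compared by two-sided exact permutation, and values within a list by exact sign flips, in Python 3.11.15 with numpy 2.4.6 and scipy 1.17.1, with Benjamini-Hochberg adjustment over 25 tests, 21 planned and 4 added after seeing the data (repeated-sequence, 45S, pseudogene and boundary shares). A result passed at an exact p under 0.05, and adjusted values stand beside it. The tests were tested on simulated data.

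IP and input of the same number come from the same extract, which pairs them. Over 9 such pairs the deviations of gene shares from their group means correlated at 0.01 to 0.56 (median 0.21), against a median of -0.15 over 18 pairs of other numbers.

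Named genes are the 12 with most pooled consensus regions, the 6 with most input clusters, the 4 with most control IP clusters and up to 4 of each gene list. Genes of chromosome Y and 1 further gene are counted but not named. The members and lists were chosen with earlier results of these data known.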

Additional observations from a re-analysis of the deposited data

Results flagged for a closer look

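Values of 10 measures were examined for a list far from the others in the 6 IP lists and in the 6 SCAF4 and SCAF8 inputs, 20 sets in all, of which chance flags about 1 in 20; 3 were found. The share of clusters in divergent genes was 10.3% in SCAF8 IP replicate 2, below the other 5 IP lists, the nearest of which had 12.8%. The share of windows with CGG or CGA was 63.0% in SCAF8 IP replicate 1, below the nearest IP list at 67.5%. The share of windows with NCAGN with C or G at each N was 29.1% in SCAF8 input replicate 1, below the nearest input at 35.9%.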

How the results depend on the processing

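Differences are in percentage points, or on the log2 scale for exon density, and p is from the exact permutation or sign-flip test. With the replicate block, labels exchanged only within a replicate number, the lncRNA share differences of -0.64 (IP against inputs) and -2.66 (IP against control IP) no longer passed in the exact permutation test (p = 0.0741 each), the GC difference of 1.31 between IP and inputs passed (exact permutation test, p = 0.00926), and no other call changed.

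Restricting each list to its better-scored clusters, from the median upward, gave -0.30 for the lncRNA share against inputs, 7.61 for the exon share against control IP, -0.0736 for divergent genes, 2.97 for GC against inputs and 1.20 for CGG or CGA against protein-coding genes. Without the gene with most clusters the lncRNA share differences were -0.19, -0.83 and, for control IP against parental input, -0.21, the exon share against control IP 9.86, the gene start share 2.02, the snoRNA host share -2.17, GC -0.00851, CGG or CGA 2.68 and CTCC or CACC 5.22 against inputs. Without small RNA genes the lncRNA share difference was -0.50 and that of divergent genes 2.43, and without clusters downstream of coding genes the latter was 2.27. Exons of all isoforms gave 0.84 for the exon share against control IP, 500 nt from the start 1.80 for the gene start share, 2000 nt between starts 3.43 for divergent genes, and a 50 nt window 2.95 and 1.84 for CGG or CGA against inputs and protein-coding genes.

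The following settings were chosen after seeing the data. Without 45S repeats the lncRNA share differences were -0.13 and -1.08, the exon share against control IP -12.9, gene start 1.59, snoRNA hosts -2.32, GC 3.27, CGG or CGA 11.4 and CTCC or CACC 9.23 against inputs. Against protein-coding genes the exon share was then -27.3, GC 1.35, CGG or CGA -0.0887, NCAGN 3.66 and repeated sequence 31.6, and exon density was 3.66. Without repeated sequence the exon share was 5.82 against inputs and -18.8 against control IP, exon density 0.50, divergent genes 3.62, GC against inputs 4.89 and against protein-coding genes -0.0562, the motifs against protein-coding genes -6.45, 1.28 and 2.54, and the pseudogene share 2.83. Without the 3 tandem repeat genes the lncRNA share was -0.66, divergent genes 2.43 and the motifs -0.94, 0.55 and 3.62. The causes were not tested.

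Consensus regions (SCAF4, SCAF8, pooled) were 105, 56 and 355 when 3 lists were required, 706, 511 and 1220 without the input density step, 178, 118 and 416 at the median score and 262, 172 and 469 without repeated sequence.

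Leaving out each replicate number in turn, the lncRNA share difference between IP and inputs ranged from -0.77 to -0.56 and did not pass in any. Against control IP it ranged from -3.84 to -1.43, where the exact permutation test of 4 lists against 2 cannot reach the threshold. The exon share against control IP ranged from -4.41 to 1.65, gene start from 2.30 to 3.72, snoRNA hosts from -1.92 to -0.888, GC from 0.731 to 1.60, CGG or CGA from 4.35 to 8.14, CTCC or CACC from 5.63 to 6.96 and the pseudogene share from 9.65 to 13.1. With 4 lists the sign-flip test cannot reach the threshold, and there the exon share against protein-coding genes ranged from -30.4 to -28.1, exon density from 3.53 to 3.57, GC from 1.81 to 2.38, the motifs from 1.08 to 1.77, 2.16 to 2.71 and 4.54 to 6.57, and repeated sequence from 33.6 to 35.3. Consensus regions ranged from 132 (without replicate 2) to 489 for SCAF4, from 74 (without replicate 3) to 213 for SCAF8 and from 383 (without replicate 3) to 828 pooled. Depth is known only as clusters per list, so low counts in inputs and control IP do not show that a gene was unbound there.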

Other observations

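A few lncRNA regions were present whatever was precipitated. Of the 3918 merged lncRNA regions 44 held a cluster in all 18 lists. B4GAT1-DT, divergent from B4GAT1, had 16 clusters, 1 in each list but control IP replicates 2 and 3. ENSG00000259001, a gene of 638 nt on chromosome 14 chosen after its values were seen, had 20 clusters, every one over a small noncoding RNA gene, with 6 in the IP lists and 12 in the inputs. At the other end, the imprinted RNAs were nearly unseen, with 1 cluster in GNAS-AS1 and none in the other 7 genes of that list, and SOX2-OT, of 847119 nt, had 3 clusters.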
